A study of Homo sapiens with 11 samples.

Results

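The kinase, phosphatase and feedback genes of the p38 and ERK pathways described here were measured by RNA-seq in lung cancer cells with less METTL3, the enzyme that writes m6A into messenger RNA. They were picked by gene symbol as MAPKAPK2, MAPK14, MAPK3, DUSP1, DUSP4, DUSP5, DUSP6, DUSP10 and SPRY2. All 9 members were found in both deposited tables, which list 21316 genes for A549 and 20915 for H1299, with 19806 names in both. A549 is a human lung adenocarcinoma line, and H1299 a human non-small cell lung carcinoma line that lacks p53. In each line METTL3 was knocked down by shRNA in 2 libraries (shMETTL3, with the numbers 1 and 2), and the control of each line is 1 library with an shRNA to GFP, a gene these cells lack (shGFP). All were grown in DMEM with serum, and poly(A) RNA was sequenced with a stranded kit. It is not stated whether the numbers stand for hairpins or replicates, whether a number means the same in both lines, or whether cultures were separate. The p-values below therefore measure only the spread between these libraries, which may be technical.

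Mitogen-activated protein kinases are switched on by phosphorylation of a threonine and a tyrosine in their activation loop, and the p38 arm answers stress and cytokines while the ERK arm answers growth factors through RAS. Dual-specificity phosphatases (DUSPs) remove both phosphates, and several are transcribed in response to the kinases they switch off, so that their transcripts are commonly read as feedback of the pathway. Lung adenocarcinomas often carry activated RAS, and A549 and H1299 each carry a mutated RAS gene. Transcript levels measure neither phosphorylation nor translation of these proteins.

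Levels are given as scaled reads, the reads of a gene divided by 1 factor per library. The authors chose that factor separately in each table, so a level in A549 is not on the scale of a level in H1299. The libraries held 14447379 to 19966206 reads in genes in A549 and 23099169 to 26351309 in H1299. METTL3 itself was lower in all 4 knockdown libraries, at 0.416 and 0.417 times shGFP in A549 libraries 1 and 2, and at 0.454 and 0.370 times in H1299. A549 library 1 stood furthest from its control: 303 of 11965 genes with a mean level of at least 20 were at least 2-fold from shGFP, against 155 for A549 library 2, and 31 and 53 of 10798 for H1299 libraries 1 and 2. In such bulk samples, fewer cells of a kind and less RNA per cell cannot be told apart. Summed epithelial markers (EPCAM, KRT8, KRT18, KRT19 and CDH1) were also highest in that library, at 26155 scaled reads, against 18102 in A549 library 2 and 18701 in A549 shGFP. In H1299 they summed to 1189 to 1610, with KRT19 at 0 throughout and EPCAM at 0 in library 2. Summed markers of other cell types ranged from 11.0 to 35.2 in H1299. In A549 they ranged from 17.5 to 25.5 for leukocytes and endothelium and from 62.6 to 103 for fibroblasts.

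No member passed the test for a change after METTL3 knockdown. By limma with Benjamini-Hochberg adjustment over all genes, 0 of 9 members and 0% of all 17454 genes were called in A549, and 0 of 9 members and 0% of 16470 genes in H1299. At an unadjusted p under 0.05, 0 of 9 members stood in either line, and 115 and 99 of all genes. edgeR on the reads recovered from the A549 values also called 0 of 9 members and 0 of 16263 genes, with 111 genes at an unadjusted p under 0.05. Over both lines limma called 0 of 9 members and 0% of 15546 genes, with 374 genes and 0 members at an unadjusted p under 0.05. METTL3, the targeted gene, was itself not called in either line, nor over both lines (limma adjusted p = 0.139). The tests within a line leave 1 residual degree of freedom, so they called no change of the members and do not show that there was none. In A549 the 95% interval of the log2 change ran from -0.53 to 0.57 for MAPK14 and from -2.28 to 0.97 for DUSP1, the widest of the members, as the plot of knockdown changes shows.

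**Figure D1:**
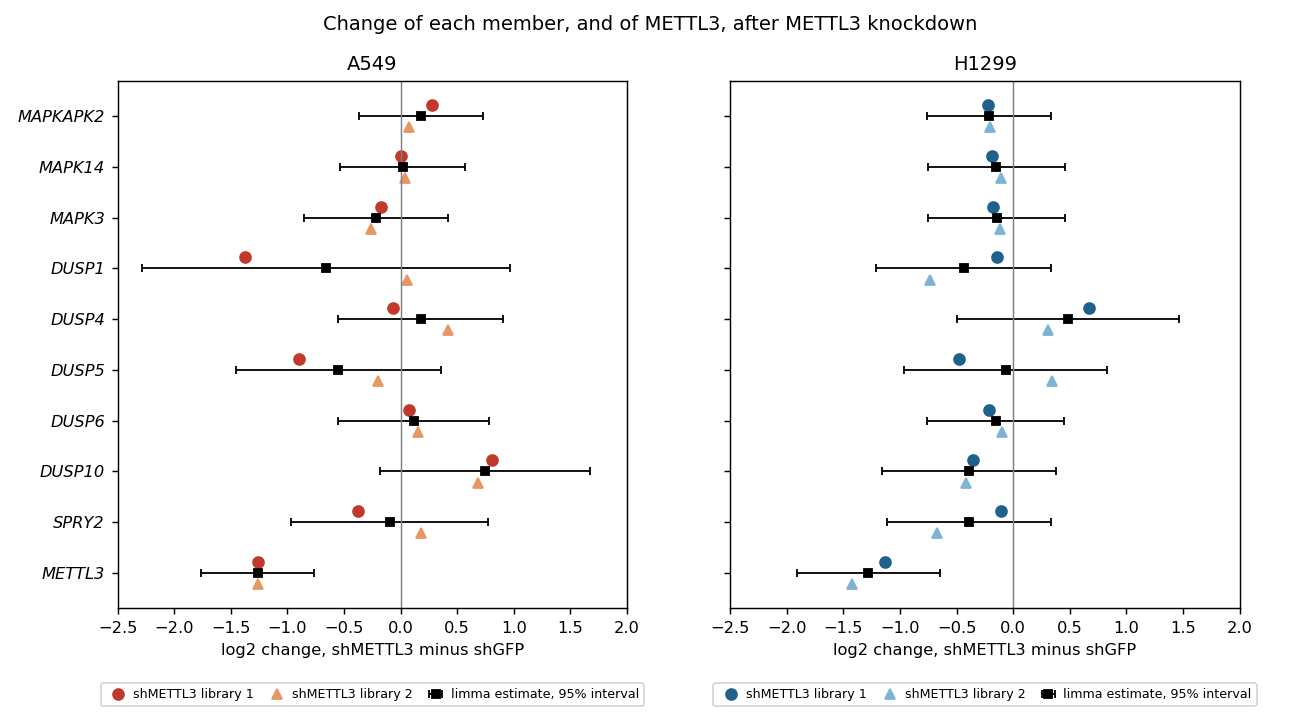
Log2 change from shGFP of the 9 members and METTL3 in A549 (left) and H1299 (right), on log2(scaled reads + 1). Circles and triangles are shMETTL3 libraries 1 and 2, squares the limma estimate with its 95% interval. The intervals of all 9 members include 0, and METTL3 lies at -1.26 in A549 and -1.28 in H1299, also without a call after adjustment.

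Among the kinases, MAPKAPK2 (MK2), which p38 activates and which stabilises cytokine transcripts through the RNA-binding protein ZFP36, stood slightly above the control in A549 and slightly below it in H1299. It had 314 and 273 scaled reads in A549 shMETTL3 libraries 1 and 2, against 259 in shGFP. In H1299 it had 199.1 and 202 in the knockdown libraries, against 233 in shGFP. Both knockdown libraries thus lay above the 1 control library in A549, as for 27.2% of all genes. In H1299 both lay below it, as for 24.5%. The limma changes were 0.18 (SE 0.21) in A549 and -0.22 (SE 0.22) in H1299. In A549 library 2 the 95% counting interval of the ratio of 1.05 included 1 (0.962 to 1.16); such intervals cover counting error only. In H1299 both ratios lay below 1 beyond counting error, at 0.854 (0.782 to 0.932) and 0.866 (0.796 to 0.943).

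MAPK14, which encodes the p38 alpha kinase that acts upstream of MAPKAPK2, was the steadiest member in A549. Its levels were 129 and 133 scaled reads in A549 libraries 1 and 2, against 129 in shGFP, a limma change of 0.02 (SE 0.21). In H1299 they were 96.4 and 102 in the knockdown libraries, against 110 in shGFP (log2 -0.15, SE 0.24). Only H1299 library 1 differed from its control beyond counting error (ratio 0.875, 0.770 to 0.994).

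MAPK3, which encodes ERK1, was the member that lay below shGFP in all 4 knockdown libraries. It had 62.5 and 58.8 scaled reads in A549 libraries 1 and 2, against 70.5 in shGFP. In H1299 it had 99.8 and 105 in the knockdown libraries, against 113 in shGFP. The differences were small: limma gave -0.22 (SE 0.24) in A549, -0.15 (SE 0.24) in H1299 and -0.18 (SE 0.13) over both lines (adjusted p = 1 in each). Of all genes measured in both lines, 9.05% lay below the control in all 4 knockdown libraries, against 1 of these 9. Libraries of a line share their control, so a shared side within a line is no independent repeat.

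**Figure D2:**
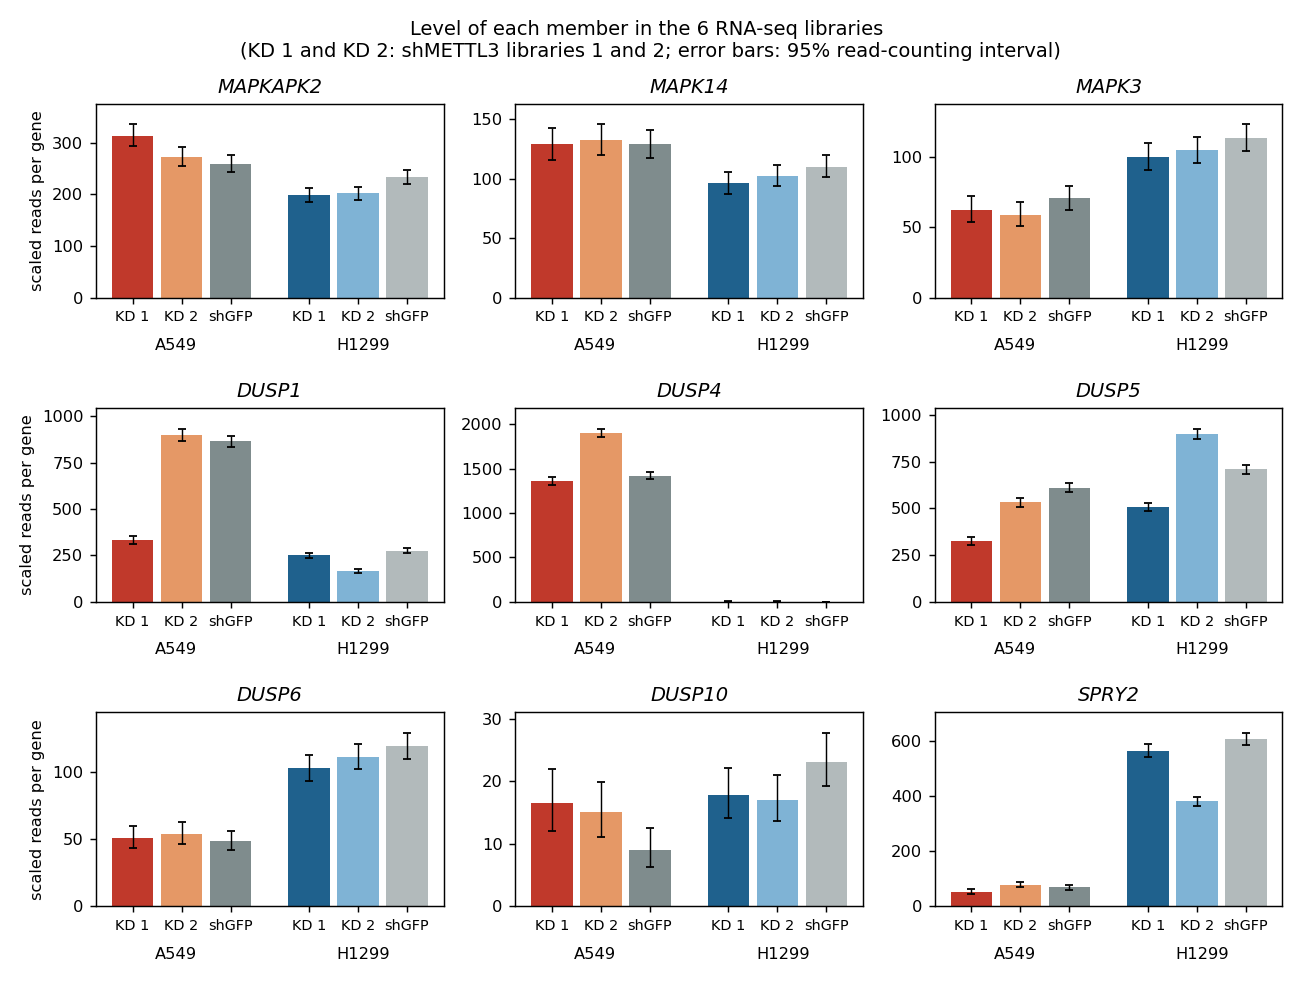
Scaled reads per gene (linear axes from 0, 1 panel per member) in shMETTL3 libraries 1 and 2 (KD 1, KD 2) and shGFP of A549 and H1299, with 95% read-counting intervals. MAPK14 and DUSP6 are nearly level within a line, DUSP1 is low in A549 library 1 at 332, and DUSP4 is near 0 in H1299.

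DUSP1 (MKP-1), an early response phosphatase of the nucleus that acts on p38 and JNK as well as ERK, had the lowest ratio to control of the members. In A549 it had 332 scaled reads in shMETTL3 library 1 and 899 in library 2, against 864 in shGFP. Library 1 alone was low, at 0.384 times the control (0.357 to 0.414), while library 2 lay at 1.04 times (0.990 to 1.09). In H1299 the low library was the other number, with 250 in library 1 and 166 in library 2, against 276 in shGFP. Library 2 stood at 0.600 times the control (0.550 to 0.654) and library 1 at 0.905 times (0.836 to 0.979). limma gave -0.66 (SE 0.61) in A549 and -0.44 (SE 0.31) in H1299, and the estimate over both lines was -0.55 (SE 0.35, adjusted p = 1). The change was not larger than the spread between the libraries. Without A549 library 1 the A549 difference was 0.06 and that over both lines -0.23, and without A549 library 2 the value over both lines was -0.84.

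The DUSP1 promoter is shown because this gene responds within minutes to stress and cyclic AMP in many cells, and because its A549 libraries differed most; that of DUSP6, whose libraries differed little, is set beside it. Both are the 250 bases before the gene's start in RefSeq on GRCh38.p14, from the minus strand, at chr5:172771196-172771445 for DUSP1 and chr12:89352502-89352751 for DUSP6. Capitals mark matches on either strand to the cyclic AMP response element TGACGTCA, its core site TGACG, the AP-1 element TGANTCA and the ETS site CCGGAA.
DUSP1: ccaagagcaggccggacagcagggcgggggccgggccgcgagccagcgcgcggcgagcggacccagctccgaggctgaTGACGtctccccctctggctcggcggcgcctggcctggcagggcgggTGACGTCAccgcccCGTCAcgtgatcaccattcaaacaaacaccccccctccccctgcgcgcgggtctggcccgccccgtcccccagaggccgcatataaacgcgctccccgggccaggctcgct
DUSP6: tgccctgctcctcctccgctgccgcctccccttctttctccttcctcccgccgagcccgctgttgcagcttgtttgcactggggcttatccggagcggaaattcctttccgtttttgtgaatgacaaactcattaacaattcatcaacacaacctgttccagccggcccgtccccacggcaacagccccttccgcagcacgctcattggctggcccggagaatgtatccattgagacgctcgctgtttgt
DUSP1 holds 1 full element that starts 125 bases before the gene's start, and 4 core sites, of which 2 lie inside the full element. DUSP6 holds no match to these 4 strings. Shorter forms, such as the GGAA within the ETS site, were not searched, and GGAA does occur in the DUSP6 window. Of 35116 windows of the same length, 1.65% hold the full element, 21.2% the core site, 6.57% the AP-1 element and 14.5% the ETS site. Windows were at hand for MAPK14, MAPK3, DUSP1, DUSP6, DUSP10 and SPRY2. Outside DUSP1, 1 core site and 1 ETS site were found, both for SPRY2. These are matches of letters, and binding was not measured.

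DUSP5, a nuclear phosphatase specific for ERK, was low in shMETTL3 library 1 of both lines. In A549 it had 327 scaled reads in library 1 and 533 in library 2, against 611 in shGFP. In H1299 it had 509 in library 1 and 900 in library 2, against 710 in shGFP. Library 1 therefore lay below the control in both lines, at 0.535 times (0.495 to 0.578) in A549 and 0.718 times (0.681 to 0.757) in H1299. Library 2 lay below it in A549, at 0.871 times (0.818 to 0.928), and above it in H1299, at 1.27 times (1.21 to 1.33). For knockdown as a whole limma gave -0.55 (SE 0.34) in A549 and -0.07 (SE 0.36) in H1299. Without library 1 the values were -0.20 in A549 and 0.34 in H1299, so that the H1299 estimate turns with that library.

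DUSP6 (MKP-3), the cytoplasmic ERK phosphatase whose transcript is often used as a readout of ERK activity, stayed close to its control in both lines. It had 51.1 and 54.1 scaled reads in A549 libraries 1 and 2, against 48.4 in shGFP (log2 0.12, SE 0.25). In H1299 it had 103 and 112 in the knockdown libraries, against 119 in shGFP (log2 -0.15, SE 0.24). Of the 4 ratios, the one beyond counting error was that of H1299 library 1, at 0.862 (0.762 to 0.974). The 95% interval of the limma change ran from -0.55 to 0.78 in A549 and from -0.76 to 0.45 in H1299. Over the 4 log2 differences from shGFP, its nearest other member was MAPK14 (Euclidean distance 0.141). Of 10097 genes with a mean level of at least 20 in both lines, the nearest was GOLGA1 (0.0546), which encodes a golgin. Next came SLC35E1 (0.0568) and PIK3R2 (0.0593), a regulatory subunit of PI3K. These distances include the counting error of DUSP6, whose ratio of 1.05 in A549 library 1 had an interval of 0.842 to 1.32. No weight is placed on their order.

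DUSP4 (MKP-2), a nuclear phosphatase of ERK and JNK that is induced by ERK signalling, was abundant in A549 and near the limit of detection in H1299. In A549 it had 1358 scaled reads in library 1 and 1902 in library 2, against 1420 in shGFP. Library 2 was 1.34 times the control (1.29 to 1.39) and library 1 was 0.956 times (0.917 to 0.997), so the knockdown libraries lay on opposite sides of it. limma gave 0.18 (SE 0.27). In H1299 only 20 and 16 reads were counted in libraries 1 and 2, against 12 in shGFP, which is 4.4 and 3.2 scaled reads against 2.4. Those ratios, 1.89 (0.879 to 4.24) and 1.36 (0.604 to 3.15), cannot be told from 1 at this depth. The nearest genes to DUSP4 over the 4 differences were NGFRAP1 (distance 0.143), the G protein subunit gene GNB4 (0.145) and the potassium channel subunit gene KCNMB4 (0.154). The genes compared had a mean level of at least 20 in both lines, which DUSP4 did not reach in H1299. Its H1299 differences rest on the few reads above, so these distances include that counting error.

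DUSP10 (MKP-5), which acts on p38 and JNK, lay above the control in A549 and below it in H1299. In A549 it had 16.4 and 15.0 scaled reads in libraries 1 and 2, against 8.95 in shGFP, from 46, 48 and 34 reads. In H1299 it had 17.8 and 17.0 in the knockdown libraries, against 23.1 in shGFP, from 80, 85 and 118 reads. With 1 control library per line such a shared side is common. Both knockdown libraries lay above it for 27.2% of all A549 genes and below it for 24.5% of H1299 genes. The counts of DUSP10 were few. The A549 ratios were 1.84 (1.15 to 2.95) and 1.68 (1.06 to 2.68), which made DUSP10 the member at least 1.5-fold from shGFP in both A549 libraries; 2.44% of all A549 genes met that rule. In H1299 no member met it, and 1.68% of all genes did. limma gave 0.75 (SE 0.35, adjusted p = 1) in A549 and -0.39 (SE 0.31, adjusted p = 1) in H1299.

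SPRY2, an inhibitor of signalling between growth factor receptors and RAS, was low in A549 library 1 and in H1299 library 2. In A549 it had 52.5 scaled reads in library 1 and 77.8 in library 2, against 68.4 in shGFP. In H1299 it had 567 in library 1 and 382 in library 2, against 609 in shGFP. The low libraries stood at 0.767 times (0.622 to 0.943) and 0.626 times (0.591 to 0.663) their controls. limma gave -0.10 (SE 0.33) in A549 and -0.39 (SE 0.29) in H1299. The nearest other member to DUSP1 was SPRY2 (distance 1.01), and the same libraries were low for both genes. The remaining members had as nearest member DUSP6 (MAPKAPK2, 0.244, and DUSP4, 1.01), MAPK14 (MAPK3, 0.344, and SPRY2, 0.700), MAPK3 (DUSP5, 0.911) or MAPKAPK2 (DUSP10, 0.846).

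Taken by side, 3 of 9 members lay above shGFP in both A549 knockdown libraries (MAPKAPK2, DUSP6 and DUSP10) and 2 below (MAPK3 and DUSP5), against 27.2% of all A549 genes on each side. In H1299, 7 of 9 lay below the control in both libraries and 1 (DUSP4) above, against 24.5% and 30.6% of all genes. The remaining member, DUSP5, had its H1299 knockdown libraries on opposite sides, as had 44.9% of genes, and 4 of 9 had theirs so in A549, against 45.6%. MAPKAPK2, DUSP6 and DUSP10 lay above control in A549 and below it in H1299, as did 5.11% of genes measured in both. In A549 the ratios of DUSP6, and that of MAPKAPK2 in library 2, were within counting error. With libraries scaled without RNA45S5, the A549 count above was 4, with MAPK14 added. The H1299 count was 7 also after median centring and under that scaling; RNA45S5 is the ribosomal RNA precursor and held 20.5, 25.4 and 23.1% of the reads of H1299 libraries 1 and 2 and shGFP. The median change of the members was 0.02 in A549 and -0.15 in H1299, and that of all genes -0.00138 and 0.0187. None of the 9 differed between the lines by limma's interaction term (0 of 9 members and 0% of 15546 genes with an adjusted p under 0.05). At an unadjusted p under 0.05 stood 49 of all genes and 1 member, DUSP10, whose change in A549 minus that in H1299 was 1.14 (SE 0.44, limma adjusted p = 1).

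The libraries numbered 1 and 2 were also set against each other, to ask whether they differ in the same direction in both lines. Opposite differences cancel in this comparison, so it does not test whether the knockdown libraries of a line are alike. The limma model of the 6 libraries, in which line was a term and 2 residual degrees of freedom were left, called 257 of 15546 genes (1.65%), with 191 higher (1.23%) and 66 lower (0.425%) in number 1. After median centring the split was 100 higher and 114 lower, and with scaling without RNA45S5 it was 102 and 71. Without the intensity trend no gene was called, and the count also moved with the filter on low values. As deposited, the median gene was 0.13 log2 units higher in number 1 than in number 2 of H1299 and 0.03 higher in A549. Of the 9 members 1 was called, DUSP5, and it fell in number 1. The difference was -0.76 (SE 0.14, 95% interval -1.08 to -0.44, adjusted p = 0.0395), with number 1 lower in 2 of 2 lines.

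In A549 library 1 stood at 0.614 times library 2 for DUSP5 (0.566 to 0.666), and in H1299 at 0.566 times (0.538 to 0.595). Of all genes, 0.978% were at least 1.5-fold lower in number 1 than in number 2 in both lines. DUSP5 and DUSP1 were the 2 members at least 1.5-fold apart between the numbers in each line, as were 19.8% of all genes in A549 and 15.1% in H1299. The limma call was lost with no filter on low values (adjusted p = 0.0520), without the intensity trend (adjusted p = 0.188) and without H1299 library 2 (-0.60). It held in the other alternatives that kept all knockdown libraries, including median centring (adjusted p = 0.0369) and scaling without RNA45S5 (0.0458). Leaving out A549 library 1 gave -0.69. With a knockdown library left out, 1 of the numbers rests on a single library, so no support is drawn from calls made there.

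**Figure D3:**
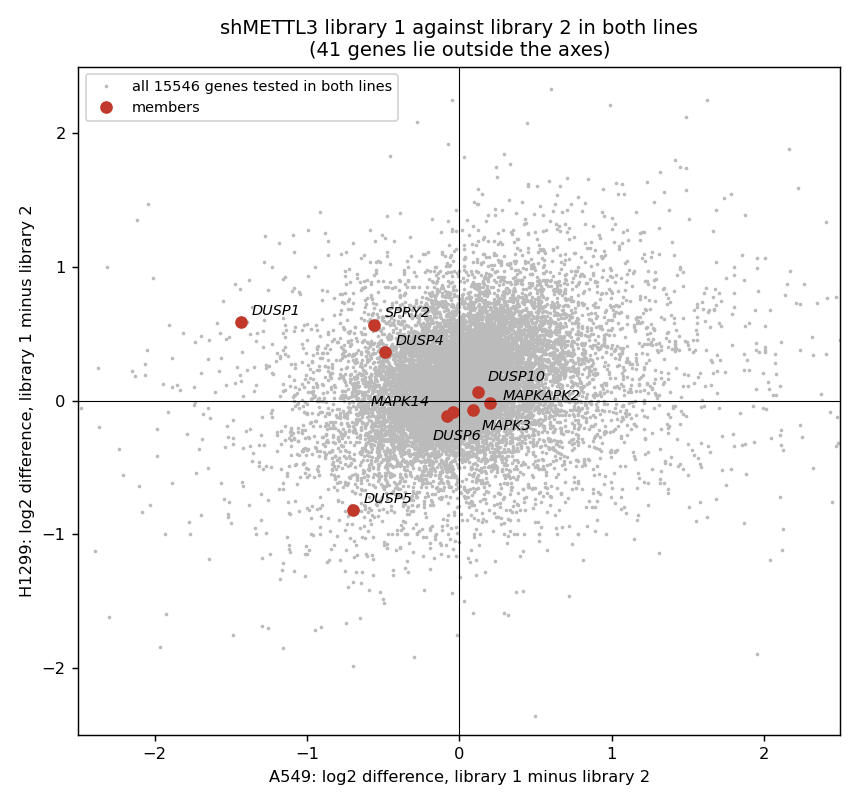
Log2 difference of shMETTL3 library 1 minus library 2 in A549 (horizontal) and H1299 (vertical) for the 15546 genes measured in both (grey) and the 9 members (red); 41 genes lie outside the axes. DUSP5 lies at -0.70 and -0.82, while DUSP1, SPRY2 and DUSP4 lie to the left of 0 in A549 and above 0 in H1299.

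DUSP1 and SPRY2 differed between the numbers in opposite directions in the 2 lines. DUSP1 in library 1 was 0.369 times its level in library 2 in A549 (0.343 to 0.398) and 1.51 times in H1299 (1.38 to 1.65). SPRY2 was 0.675 times in A549 (0.546 to 0.831) and 1.48 times in H1299 (1.40 to 1.58). DUSP4 was 0.714 times in A549 (0.685 to 0.743), and in H1299 its ratio of 1.39 (0.684 to 2.87) was within counting error. The fit over both lines gave no call for any of the 3: -0.42 (SE 0.36, adjusted p = 0.576) for DUSP1, 0.01 (SE 0.23, adjusted p = 0.995) for SPRY2 and -0.06 (SE 0.21, adjusted p = 0.911) for DUSP4. With H1299 library 1 or 2 left out, DUSP1 was called as lower in number 1 (-1.24 and -1.13). That estimate rests mainly on A549, with 1 of the numbers on a single library.

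For the kinases, DUSP6 and DUSP10 the fit over both lines gave no call either (limma adjusted p of 0.786 or more). That p-value does not measure how close the libraries of a line lay. The differences over both lines were 0.09 (SE 0.14) for MAPKAPK2, -0.06 (SE 0.13) for MAPK14, 0.01 (SE 0.14) for MAPK3, -0.10 (SE 0.15) for DUSP6 and 0.09 (SE 0.31) for DUSP10. Of these the ratio of MAPKAPK2 in A549 was beyond counting error, at 1.15 (1.05 to 1.27). Number 1 was below number 2 in A549 for 6 of 9 members and in H1299 for 5 of 9, against 47% and 34.3% of all genes. It was below in both lines for 3 (MAPK14, DUSP5 and DUSP6), against 20.7% of genes, and above in both for 1 (DUSP10), against 37.8%. The sign over both lines turned below 0 after median centring for MAPKAPK2, MAPK3, DUSP10 and SPRY2, so no direction is drawn for them.

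Other genes of the pathways were read from 5 lists, and no gene of any list passed limma for knockdown in either line, over both lines, for the interaction or for number 1 against 2. Of 18 listed genes of the p38 pathway, 18 were measured in A549 and 17 in H1299, with median knockdown changes of -0.04 and -0.01. Of 18 listed genes of the ERK cascade 17 were measured in each line (medians -0.00195 and -0.04), and of the other MAP kinase phosphatases 5 of 5 (-0.09 and 0.07). For knockdown, JNK arm genes had medians of -0.10 in A549 (4 measured) and -0.18 in H1299 (5 measured). In the 4 lists named so far, no gene with a mean of at least 5 was at least 1.5-fold from shGFP in both knockdown libraries of a line.

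For number 1 minus number 2 over both lines, the lists are described by counts and medians, without a test. The ERK cascade had 4 of 17 genes below 0 (median 0.18) and the p38 pathway 6 of 17 (0.04). The other phosphatases had 3 of 5 below 0 (-0.36) and the JNK arm 3 of 4 (-0.05). Of all genes 39.0% lay below 0, with a median of 0.07. At an unadjusted p under 0.05 stood 3 of the ERK cascade, all higher in number 1, and 5 of the p38 pathway, of which 4 were higher. The same held for 1 of the other phosphatases, which was lower. Of all 15546 genes 2899 (18.6%) did so, of which 2048 were higher and 851 lower.

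Genes that ERK signalling is known to raise, or that feed back on it, mostly had lower estimates in number 1, though none was called. The list was chosen with earlier results of these data known, so its counts are a description and no test. Of 14 measured in both lines, 11 had an estimate below 0 for number 1 minus number 2, with a median of -0.29, against 39.0% of all genes below 0 and a median of 0.07. The same 11 genes were below the median of all genes, and 3 of them, EPHA2, SPRED2 and CCND1, were within 0.05 of 0. Within a line the list's median was -0.03 in A549 and -0.21 in H1299. At an unadjusted p under 0.05 stood 7 of the 14, of which 5 were lower in number 1 and 2 higher, and 2899 of all 15546 genes (18.6%), of which 851 were lower and 2048 higher. The lowest adjusted p was that of IER3, an early response survival gene, which had 494 scaled reads in library 1 and 861 in library 2 of A549, and 397 and 541 in H1299. Its difference was -0.62 (SE 0.13, adjusted p = 0.0547), with number 1 lower in 2 of 2 lines. FOSL1, the AP-1 subunit FRA1, had 41.1 and 79.4 in A549 libraries 1 and 2, and 817 and 1059 in H1299 (-0.65, SE 0.18, adjusted p = 0.102). EGR1, an early response transcription factor, stood at 5.00 and 11.9 in A549 libraries 1 and 2 and at 110.0 and 146 in H1299 (-0.75, SE 0.25, adjusted p = 0.166).

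Not every gene of this list followed that side. PHLDA1, a pleckstrin-homology protein induced by ERK, had 406 and 1038 scaled reads in A549 libraries 1 and 2 but 3304 and 2779 in H1299, the split seen for DUSP1. Its estimate over both lines was still below 0 (-0.55, SE 0.29) and is counted on that side above. The ETS factor ETV1 stood at 13.6 and 9.06 in A549 libraries 1 and 2 and at 23.3 and 12.4 in H1299, higher in number 1 in both (0.70, SE 0.23, adjusted p = 0.155). Of the 15 genes listed, 1 had a mean of at least 5 and stood at least 1.5-fold from shGFP in both libraries of a line. It was EPHA4, an ephrin receptor, with 21.1 and 10.3 in A549 knockdown libraries 1 and 2, against 5.79 in shGFP. A549 library 1 also stood furthest from its control over all genes and had the highest epithelial markers; their part in these values was not tested.

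**Figure D4:**
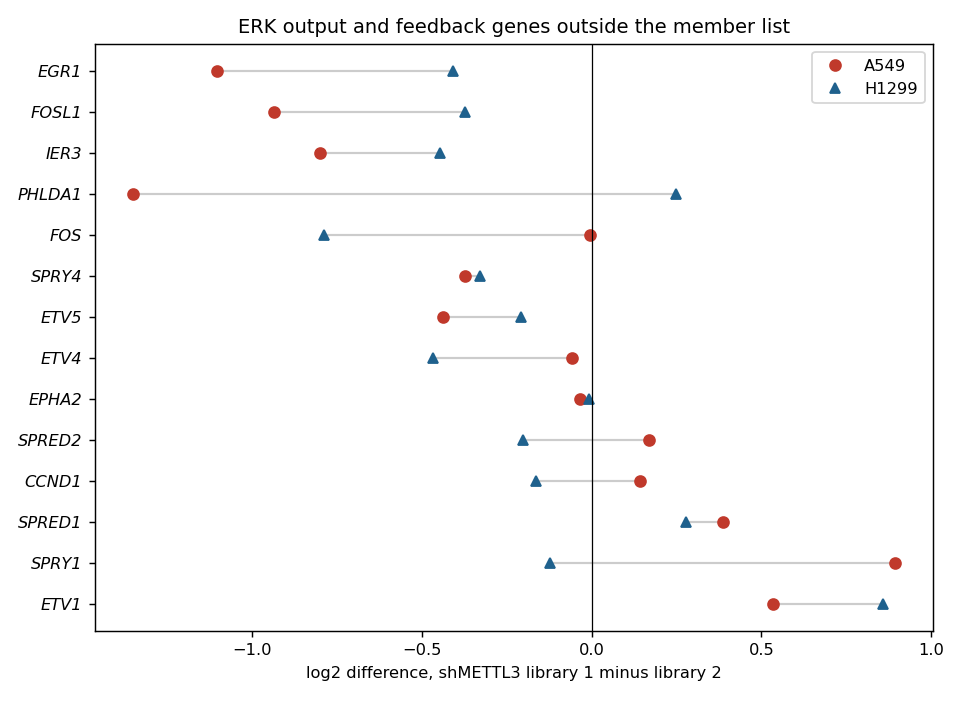
Log2 difference of shMETTL3 library 1 minus library 2 for 14 ERK output and feedback genes that are not members, in A549 (circles) and H1299 (triangles), ordered by the estimate over both lines. EGR1, FOSL1 and IER3 lie below 0 in both lines, ETV1 and SPRED1 above 0 in both, and PHLDA1 on opposite sides.

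Several members differed more between the cell lines than among the libraries of a line. To put the lines on 1 scale, levels were taken as RPM, reads scaled to the same total of reads in genes without RNA45S5; the authors scaled the lines in separate tables, and no test was made across them. RNA45S5 held 0.208 to 0.284% of the reads in A549 libraries and 20.5 to 25.4% in H1299 libraries. Differences between the lines therefore cannot be told apart from differences in how their libraries were made. DUSP4 had 264 to 370 RPM over the 3 A549 libraries, against 0.592 to 1.09 in H1299, which is 457-fold between the shGFP libraries. In every pair of libraries it was at least 242-fold higher in A549, and 1.51% of all genes were at least 10-fold higher in every pair. It was the member higher in A549 without overlap, as were 38.8% of all genes. The ranges of MAPKAPK2, MAPK14 and DUSP1 overlapped between the lines, with DUSP1 at 64.5 to 175 in A549 and 43.7 to 69.6 in H1299; the A549 value within the H1299 range was that of library 1.

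The other 5 members were lower in A549 than in H1299 without overlap, against 34.6% of all genes. SPRY2 had 10.2 to 15.1 RPM in A549 and 100.5 to 153 in H1299, and was 11.7-fold higher in H1299 between the shGFP libraries. DUSP6 had 9.24 to 10.5 in A549 and 25.2 to 30.1 in H1299. MAPK3 had 11.4 to 13.5 in A549 and 24.5 to 28.5 in H1299. DUSP10 had 1.71 to 3.19 in A549 and 4.36 to 5.83 in H1299. DUSP5 came close to overlap, with 63.5 to 117 in A549 and 125 to 237 in H1299. The ERK phosphatases thus did not share 1 order between the lines, since DUSP4 was higher in A549 and DUSP5 and DUSP6 higher in H1299.

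**Figure D5:**
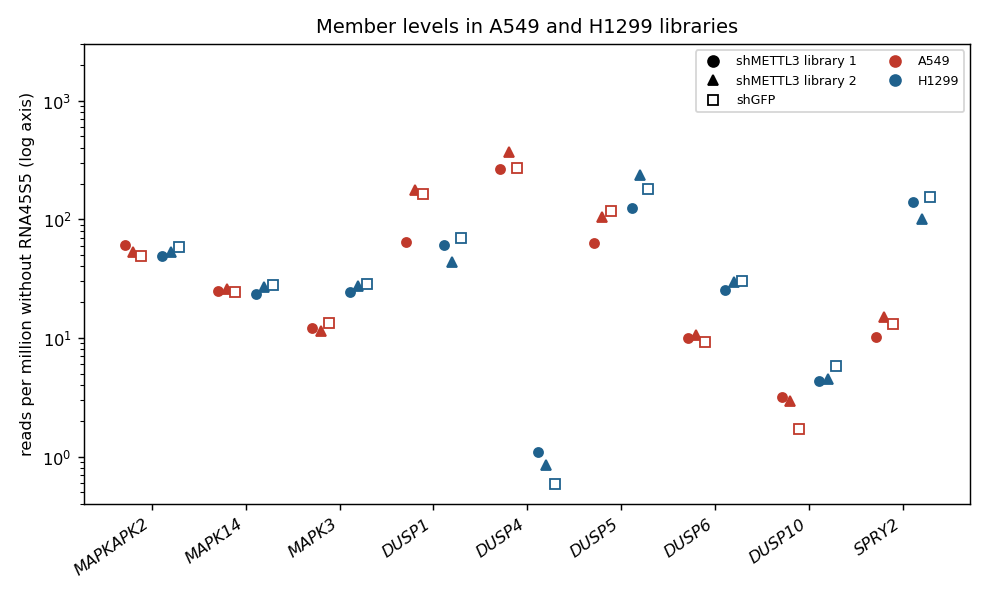
RPM, reads scaled to the total without RNA45S5 (log axis), for each member in A549 (red) and H1299 (blue); circles and triangles are shMETTL3 libraries 1 and 2, open squares shGFP. DUSP4 is at 264 or more in A549 and at 1.09 or less in H1299, and SPRY2 is higher in H1299.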

How the data were processed

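RNA-seq of 6 libraries was used; 3 lists of m6A peaks were not used here. Per the submitters' processing notes, TopHat, Bowtie and hg19 were named, without versions or roles; how reads were counted, on which annotation and strand, is not given in the sources used here. Values deposited are a signal per gene that the authors made by dividing reads by 1 factor per library, tested on the values: 100% were whole reads within 0.005 (A549) or 0.05 (H1299) of a scaled read. With 1 decimal in H1299 this check is coarser, and reads recovered there were used only for depth, RPM and counting intervals. Factors were 2.8 to 3.8 in A549 and 4.5 to 5.1 in H1299. The A549 knockdown columns, headed shMEL and a number, were matched by number.

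Values were analysed as log2(value + 1), which understates changes of low genes, for genes with a mean of at least 1 in a line. Differences were tested with limma 3.58.1 in R 4.3.3 (intensity trend) over all genes, with Benjamini-Hochberg adjustment and a threshold of 0.05. edgeR 4.0.16 was run on recovered A549 reads alone. Ratios of reads between libraries have exact 95% Clopper-Pearson counting intervals. The members, lists and tests were chosen with earlier results of these data known. Named genes were all members, list genes at least 1.5-fold from shGFP in both libraries of a line, and nearest genes by distance; IER3, FOSL1, EGR1, PHLDA1, ETV1, SPRED1, EPHA2, SPRED2 and CCND1 were chosen after their values were seen. Code was tested on simulated data.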

Additional observations from a re-analysis of the deposited data

Results flagged for a closer look

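For 3 members, both A549 knockdown libraries lay on 1 side of their control and both H1299 knockdown libraries on the other, above in A549 and below in H1299; 5.11% of all genes did so. Several of these ratios were within counting error. In A549 the intervals included 1 for DUSP6 in libraries 1 and 2 (0.842 to 1.32 and 0.902 to 1.38) and for MAPKAPK2 in library 2 (0.962 to 1.16). In H1299 they included 1 for DUSP6 in library 2 (0.832 to 1.05) and DUSP10 in library 1 (0.571 to 1.03). The change in A549 minus that in H1299 was 0.39 (SE 0.28) for MAPKAPK2, 0.27 (SE 0.33) for DUSP6 and 1.14 (SE 0.44) for DUSP10. By limma's interaction term none passed (adjusted p = 1 for each, over 15546 genes).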

How the results depend on the processing

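Of 500 member values under alternatives (log2 differences unless said), 466 kept their direction and side of the threshold, 29 turned, 3 lost a call (all DUSP5) and 2 gained one (DUSP1); edgeR was run in A549 only, and no count test in H1299. No turned value passed the test. Members were called in number 1 against 2 alone, so in the other comparisons a kept side of the threshold is no support. The count over both lines, 0, was 1 (METTL3) with median centring and with the replicate block (adjusted p = 0.0448 and 0.0173); the block changed no member's call, and with a pair of numbers the libraries share only a number (correlation of the number differences between lines across genes, r = 0.237). The number 1 against 2 count, 257, was 162 with no filter, 407 with a mean of at least 20, 0 without the trend (2899 at an unadjusted p under 0.05 with it), and 484 to 1377 when each knockdown library was left out. Median centring turned MAPK14 in A549 (-0.00818) and, by number, MAPKAPK2 (-0.00609), MAPK3 (-0.0863), DUSP10 (-0.00350) and SPRY2 (-0.0914); scaling without RNA45S5, chosen after seeing the data, turned MAPKAPK2 over both lines (0.000114) and, by number, MAPK3 (-0.0418) and SPRY2 (-0.0465). The cause was not tested. Leaving out a library gave, in A549, -0.000222 to 0.0389 for MAPK14, -1.38 to 0.0579 for DUSP1, -0.0649 to 0.42 for DUSP4 and -0.38 to 0.18 for SPRY2. In H1299 it gave -0.48 to 0.34 for DUSP5. Over both lines it gave -0.0906 to 0.0133 for MAPKAPK2 and -0.0561 to 0.0247 for DUSP6, and between the lines -0.94 to 0.50 for DUSP1 and -0.13 to 0.17 for METTL3. By number it gave -0.0913 to 0.27 for MAPKAPK2, -0.0647 to 0.0854 for MAPK3, -1.24 to 0.39 for DUSP1, -0.46 to 0.33 for DUSP4, -0.21 to 0.40 for DUSP10 and -0.49 to 0.50 for SPRY2. With an arm of 1 library, that library is assumed to vary like the others. At 12 to 20 reads, DUSP4 in H1299 allows no direction, and DUSP10 rests on 34 to 118.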
